A study of Mus musculus with 11 samples.

Results

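Krüppel-like factors (Klf) were followed in single-cell RNA sequencing of the mouse retina at postnatal day 10. The 8 genes described are Klf2, Klf3, Klf4, Klf6, Klf7, Klf9, Klf10 and Klf13, which are 8 of the 25311 genes in the count matrix. They were selected on their UMI counts across cell classes and the 4 groups in these data, so the levels below and the contrast of Phase I ROP with control are a description. The study asked how diets rich in ω-3 or ω-6 long-chain polyunsaturated fatty acids act on the retina in Phase I retinopathy of prematurity (ROP), which is modelled in mouse pups by streptozotocin (STZ), a toxin of insulin-producing cells that makes the pups hyperglycemic. All 11 mice were C57BL/6J pups at the same age. The control group received PBS (n = 3) and the Phase I ROP group received STZ (n = 3). Mice of the ω-3 diet (n = 2) and ω-6 diet (n = 3) groups received STZ too, and were nursed by dams fed the respective diet. Control and Phase I ROP mice are given as littermates, and the mice of both diets as littermates of each other that were divided between 2 cages. Litter, cage and feed therefore cannot be told apart where the diet groups are set beside Phase I ROP, nor cage and feed between the diets. The pigment epithelium was removed at dissection, and 11 libraries were made, 1 from each mouse.

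Krüppel-like factors are transcription factors with a block of C2H2 zinc fingers at the carboxyl end that binds GC-rich and CACCC sequences, the same kind of element that the related Sp factors bind. Several are switched on within minutes to hours of a stimulus: Klf2 and Klf4 through the kinase ERK5 and its MEF2 partners, Klf9 through glucocorticoid and thyroid hormone receptors, Klf10 through TGF-beta. In retinal ganglion cells Klf4 and Klf9 are known to restrain axon growth, whereas Klf6 and Klf7 favour it, and in vessels Klf2 and Klf4 keep the endothelium quiescent. Klf3 is a repressor that works with the corepressor CtBP, and Klf13 is a partly repressive member of the Klf9 branch.

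The genes lie apart in the genome. In GRCm38, Klf2 is on chromosome 8 (72319033 to 72321656), Klf3 on chromosome 5 (64803388 to 64832901), Klf4 on chromosome 4 (55527143 to 55532466) and Klf6 on chromosome 13 (5861482 to 5870394). Klf7 is on chromosome 1 (64029447 to 64122282), Klf9 on chromosome 19 (23141226 to 23168134), Klf10 on chromosome 15 (38291463 to 38300706) and Klf13 on chromosome 7 (63886351 to 63938915). RefSeq promoters of GRCm38.p6 matched 7 of the 8 by symbol, all but Klf10. They were searched on both strands, in 250 bases before and 50 bases after the start site, for elements of factors that respond to signals, growth factors or the circadian clock: the cyclic AMP response element TGACGTCA, the AP-1 site TGANTCA, the MEF2 site, the CArG box bound by serum response factor, and the E-box CACGTG. Of the 7 promoters 4 held 1 match each, and these, of Klf2, Klf4, Klf6 and Klf9, are shown. A relation of the matches to the levels was not tested. The 250 bases before each start site are printed 5′ to 3′ on the strand of the gene, with the match in capitals.
Klf2 (chr8:72318812-72319061, plus strand): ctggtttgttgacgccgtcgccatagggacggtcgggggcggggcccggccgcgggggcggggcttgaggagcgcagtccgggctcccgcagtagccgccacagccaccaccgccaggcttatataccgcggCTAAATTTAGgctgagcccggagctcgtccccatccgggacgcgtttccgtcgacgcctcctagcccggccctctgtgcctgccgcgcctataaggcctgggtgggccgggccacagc
Klf4 (chr4:55532476-55532725, minus strand): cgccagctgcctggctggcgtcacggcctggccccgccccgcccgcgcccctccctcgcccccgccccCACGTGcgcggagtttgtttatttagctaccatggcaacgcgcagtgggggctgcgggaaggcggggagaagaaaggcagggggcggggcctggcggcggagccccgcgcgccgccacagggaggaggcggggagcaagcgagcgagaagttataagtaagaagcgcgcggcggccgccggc
Klf6 (chr13:5861239-5861488, plus strand): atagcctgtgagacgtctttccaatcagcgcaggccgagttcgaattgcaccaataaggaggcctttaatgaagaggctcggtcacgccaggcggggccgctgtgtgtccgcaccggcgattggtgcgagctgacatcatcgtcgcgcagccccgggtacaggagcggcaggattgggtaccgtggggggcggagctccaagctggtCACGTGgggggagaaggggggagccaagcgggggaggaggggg
Klf9 (chr19:23140976-23141225, plus strand): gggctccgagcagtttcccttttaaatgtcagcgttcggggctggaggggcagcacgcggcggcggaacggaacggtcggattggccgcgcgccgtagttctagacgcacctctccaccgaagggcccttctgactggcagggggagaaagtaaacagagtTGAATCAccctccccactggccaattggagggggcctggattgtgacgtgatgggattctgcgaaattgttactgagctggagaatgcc
The capitals mark a MEF2 site in Klf2, at positions -118 to -109 from the start site, an E-box in Klf4 (-182 to -177) and in Klf6 (-43 to -38), and an AP-1 site in Klf9 (-89 to -83). Among 32851 promoters of 27025 genes, a MEF2 site occurred in 3.19%, the E-box in 7.15% and the AP-1 site in 7.81%. No cyclic AMP response element (1.79% of all promoters) and no CArG box (1.63%) was in any of the 7. Such a match describes the letters only, and occupancy was not measured.

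A total of 20067 cells were in the matrix, of which 20033 with more than 300 genes were clustered. Clusters were named from canonical markers, so a class is rod-like or cone-like by its genes, and 3194 cells in 9 clusters stayed unnamed. The named classes held 6984 rods, 3596 bipolar cells, 3287 amacrine cells, 1425 Müller glia and 1126 cones, and in these classes every mouse had at least 10 cells. Much smaller were the classes of endothelial cells (113), retinal ganglion cells (96), retinal pigment epithelium (75), microglia (59), astrocytes (47) and horizontal cells (31). The endothelial cluster also had the pericyte marker Rgs5 among its 10 leading genes. Of its 433732 UMIs in the 8 STZ-treated mice, 196934 came from ω-6 mouse 2. In the rod class, 4 hemoglobin genes led the rod cluster by fold, ahead of 5 rod markers. Their summed level in rods ran from 0 to 100.1 CPM (UMIs of a gene per 1000000 UMIs of all genes) in control and Phase I ROP mice. It was 3.55 to 29.15 CPM in the ω-3 mice, and 31.2, 4907 and 9731 CPM in the 3 ω-6 mice in order of level. Libraries of the control group differed from the other 8: Rn7sk, a small nuclear RNA, was at 193 to 290 CPM in them and at 1.15 to 16.2 CPM in the STZ-treated mice, and mt-Rnr2, the large mitochondrial ribosomal RNA, took 28190 to 41190 CPM against 3060 to 8232 CPM. Since every control library has this feature, it cannot be told apart from the treatment, and no comparison of STZ with control can be given without them. Among 18872 distinct cell barcodes, 1157 occurred in more than 1 library. Klf2, Klf4 and Klf6 were among the 2000 variable genes that the clustering used.

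Levels are CPM of UMIs summed over the cells of a mouse. In the sum of all cells, 2567056 to 3369648 UMIs stood behind each control mouse, 2563064 to 3486742 behind each Phase I ROP mouse and 4356305 to 6516478 behind each mouse of the diets. In such sums, fewer cells of a type and less RNA per cell cannot be told apart. Rods were 494 of 3205 control cells and 2475 of 5748 Phase I ROP cells, and the summed level of 11 rod markers in all cells was 2234 to 4975 CPM in control and 13920 to 19530 CPM in Phase I ROP.

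Klf6, a factor induced by injury, was at 12.9, 11.7 and 13.4 CPM in the 3 control mice and at 173, 155 and 125 CPM in the Phase I ROP mice. It was at 105 and 95.1 CPM in the ω-3 mice and at 73.4, 104 and 75.8 CPM in the ω-6 mice. Control was far below each STZ-treated mouse, and the Phase I ROP mice were also above each mouse of the diets. Klf4, which restrains proliferation and axon growth, was at 1.11, 4.29 and 6.53 CPM in control and at 47.5, 48.8 and 37.3 CPM in Phase I ROP, with 73.5 and 64.3 CPM under ω-3 and 46.4, 85.4 and 46.6 CPM under ω-6. The control mice were again the lowest of the 11. Klf9, the hormone-induced member, was at 47.9, 48.3 and 49.3 CPM in control, at 245, 302 and 295 CPM in Phase I ROP, at 242 and 383 CPM under ω-3, and at 358, 265 and 281 CPM under ω-6. The control levels lay within 47.9 to 49.3 CPM, and the 3 STZ-treated groups overlapped among themselves.

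Klf7, the member that favours axon growth, was at 31.7, 28.8 and 33.8 CPM in control and at 80.1, 85.1 and 75.4 CPM in Phase I ROP, with 75.3 and 60.9 CPM under ω-3 and 54.1, 65.7 and 64.3 CPM under ω-6. Klf10, an early TGF-beta response gene, was at 19.9, 18.3 and 20.8 CPM in control and at 45.1, 48.0 and 49.6 CPM in Phase I ROP, with 54.8 and 34.8 CPM under ω-3 and 34.9, 32.0 and 40.2 CPM under ω-6. For both genes, all STZ-treated mice were above all control mice. Klf2, the flow-responsive factor of endothelium, was at 2.21, 2.73 and 5.94 CPM in control and at 6.35, 18.7 and 14.9 CPM in Phase I ROP, with 17.5 and 11.2 CPM under ω-3 and 8.68, 40.1 and 9.41 CPM under ω-6. Its lowest Phase I ROP mouse lay just above the highest control mouse. Klf13 was at 33.5, 42.9 and 36.8 CPM in control and at 46.6, 62.4 and 52.2 CPM in Phase I ROP, and the diets spanned 37.7 to 59.4 CPM. Klf3 was at 14.0, 9.35 and 12.5 CPM in control and at 19.7, 13.3 and 18.9 CPM in Phase I ROP, and the diets spanned 13.3 to 20.6 CPM. Klf3 was the member whose control and Phase I ROP mice overlapped.

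**Figure D1:**
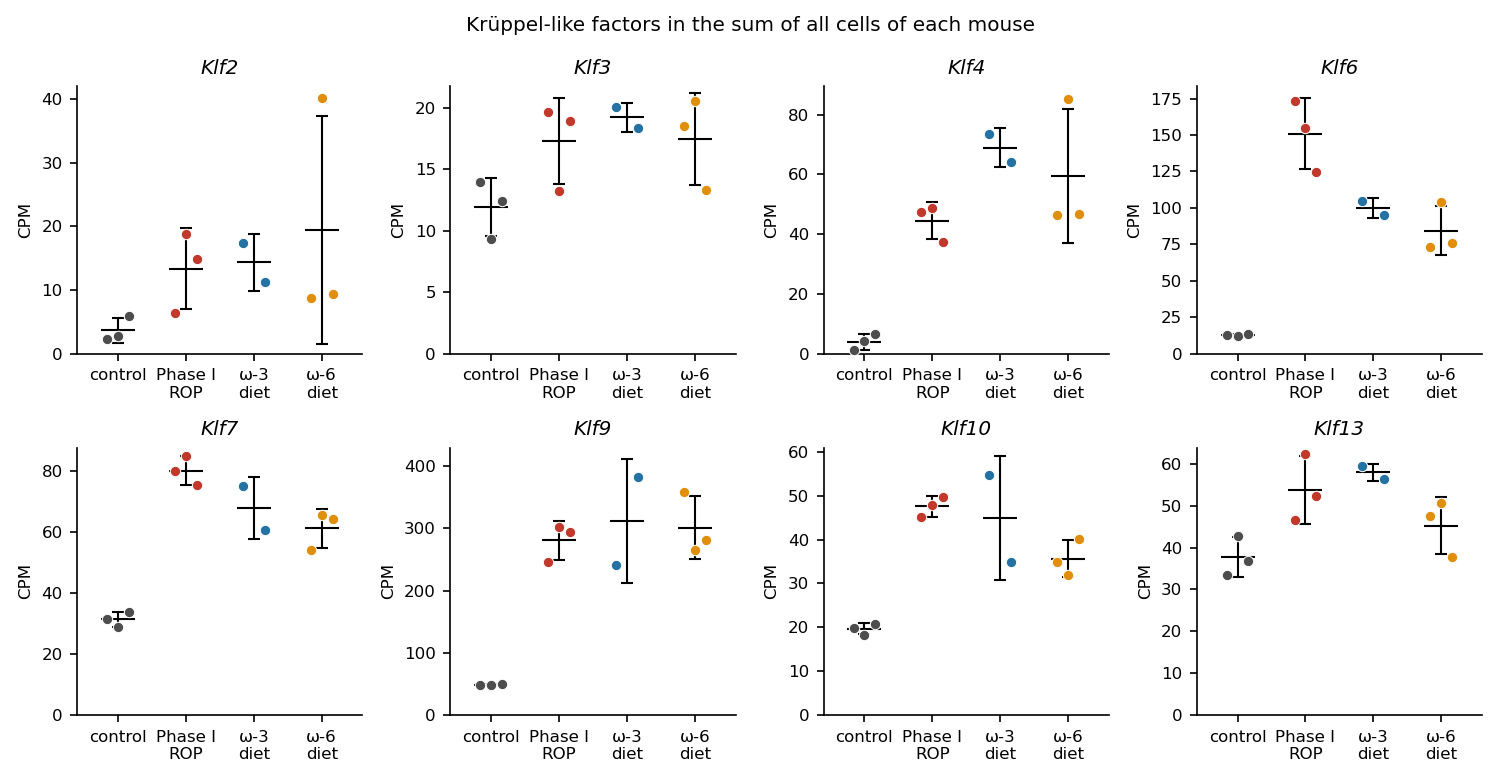
Each panel shows 1 member in the sum of all cells, with CPM on the vertical axis (linear, from 0) and the 4 groups on the horizontal axis. Points are mice, and bars are mean and SD (lower bars stop at 0). Control mice lie below all STZ-treated mice for Klf2, Klf4, Klf6, Klf7, Klf9 and Klf10, while those of Klf3 and Klf13 overlap with some.

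In the fit across all genes, 6 of 8 members were called higher in Phase I ROP at an adjusted p under 0.05 (edgeR quasi-likelihood test, Benjamini-Hochberg adjustment), beside 24.7% of 15964 genes called higher and 48.1% called in either direction. The log2 fold changes were 3.31 ± 0.18 (SE) for Klf6, 3.16 ± 0.36 for Klf4, 2.27 ± 0.12 for Klf9, 1.53 ± 0.46 for Klf2, 1.08 ± 0.14 for Klf7 and 1.01 ± 0.16 for Klf10. Klf3 was at 0.28 ± 0.26 and Klf13 at 0.24 ± 0.16, neither called. In 7 members the groups did not overlap, with Phase I ROP higher, which 40.2% of genes showed. Nothing is read from these counts, because the members were listed with this contrast known. The fit scales libraries by TMM, which left the median gene at 0.0010 in all cells, 0.15 in rods, 0.10 in cones and at most 0.024 in the other classes. Scaling to total UMIs moved that median to 0.26 in all cells and to 0.16 to 0.45 in the classes. The share of calls that were higher went from 51.4% to 70.6% in all cells, and from 47.1% to 57.9% over the classes to 68.2% to 82.7%. Under it Klf13 was called too, at 0.51 in all cells, 0.66 in amacrine cells and 0.91 in bipolar cells. Klf6 in rods was also called, at 1.77. Members are therefore given relative to the median gene in fold changes and relative to total UMIs in CPM.

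The classes differed in which members they held (the map of pooled levels by class). Pooled over the 8 STZ-treated mice, Klf9 was highest in photoreceptors, at 439 CPM in rods and 322 CPM in cones, with 275 CPM in amacrine cells, 16.1 CPM in endothelial cells and 8.21 CPM in microglia (95% exact Poisson intervals, which cover counting error only, 6.49 to 33.3 and 0.208 to 45.7). In the same mice Klf4 was at 462 CPM in Müller glia (439 to 487 CPM) and 401 CPM in endothelial cells (344 to 465 CPM), whose intervals overlap, with 319 CPM in astrocytes, and it was at 3.54 CPM in rods, 4.50 CPM in bipolar cells and 6.89 CPM in cones. Klf6 was highest in astrocytes and microglia, at 874 CPM (761 to 999.8 CPM) and 862 CPM (705 to 1043 CPM). Klf7 was highest in retinal ganglion cells, at 340 CPM (305 to 377 CPM). Klf2 was highest in microglia and endothelial cells, at 911 CPM (749 to 1097 CPM) and 613 CPM (542 to 692 CPM). It was at 0 UMIs in 22 horizontal cells, with an upper limit of 13.8 CPM, and in 66 cells of the pigment epithelium, with an upper limit of 40.25 CPM. Klf10 was highest in Müller glia (119 CPM, 107 to 132 CPM). Klf13 was at 146 CPM in 22 horizontal cells (104 to 199 CPM), an interval that overlaps those of microglia (107 CPM, 56.8 to 182 CPM), retinal ganglion cells, endothelial cells and pigment epithelium. Klf3 was highest in endothelial cells (122 CPM, 91.5 to 160 CPM) and astrocytes (106 CPM, 69.4 to 156 CPM), whose intervals overlap. The 3 control mice, pooled, had another order. Klf9 was at 124 CPM in their retinal ganglion cells (92.3 to 164 CPM), 90.7 CPM in rods (66.4 to 121 CPM) and 11.9 CPM in cones (1.44 to 43.0 CPM). Klf4 was at 36.1 CPM in endothelial cells and 21.0 CPM in Müller glia (12.3 to 33.7 CPM), and Klf10 at 28.2 CPM in bipolar cells (22.3 to 35.3 CPM) and 17.3 CPM in Müller glia (9.47 to 29.1 CPM), with overlapping intervals in both cases.

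**Figure D2:**
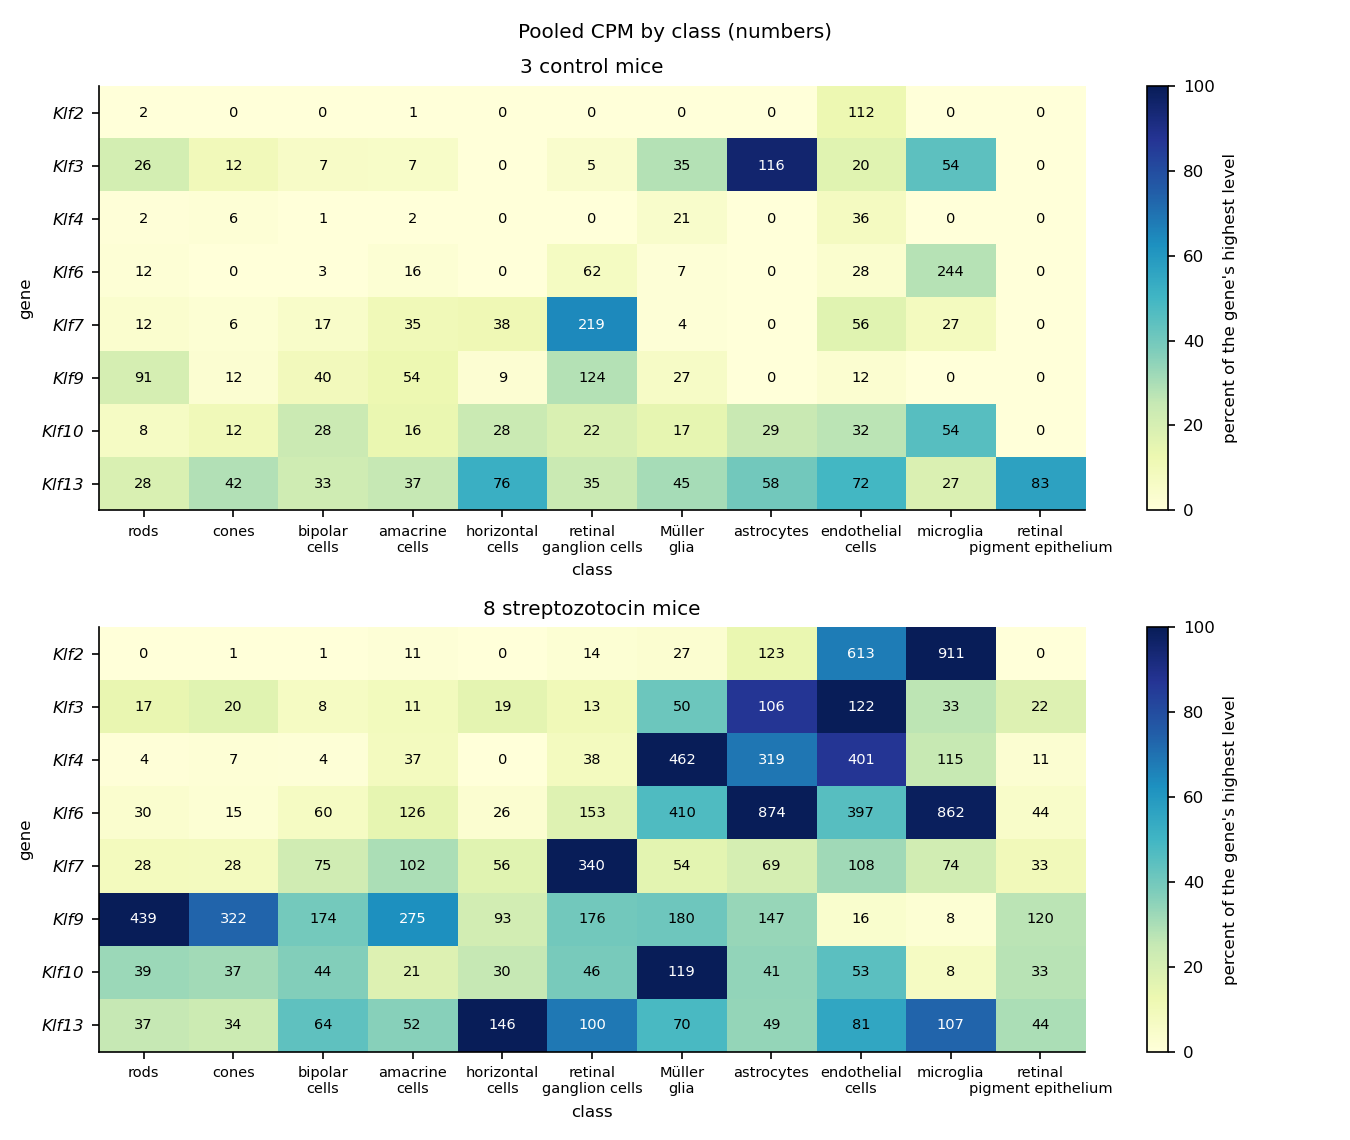
Pooled CPM of each member (rows) in each marker-defined class (columns), for the 3 control mice above and the 8 STZ-treated mice below. Numbers are CPM, and colour is the percent of the highest level of the same gene over both panels. In the lower panel Klf9 peaks in rods, Klf7 in retinal ganglion cells, Klf4 and Klf10 in Müller glia, and Klf2 in microglia and endothelial cells, while in the upper panel Klf9 is at 124 CPM in ganglion cells and 90.7 CPM in rods, and Klf2 has no UMI in microglia.

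In rods, the dim-light photoreceptors, Klf9 was at 67.7, 89.0 and 105 CPM in control and at 345, 425 and 485 CPM in Phase I ROP, with 360 and 553 CPM under ω-3 and 486, 353 and 394 CPM under ω-6. No control mouse reached the STZ-treated mice, and the log2 fold change in Phase I ROP was 2.03 ± 0.26, or 2.79 in cells with more than 500 genes. In bipolar cells Klf9 went from 35.1 to 46.5 CPM in control to 164 to 199 CPM in Phase I ROP (1.77 ± 0.20), and in amacrine cells from 49.0 to 59.4 CPM to 258 to 329 CPM (2.05 ± 0.16). In Müller glia the ranges were 23.3 to 31.0 CPM and 91.0 to 227 CPM (2.32 ± 0.40). In each of these 4 classes the fitted fold was 3.41 or more, without overlap between the groups. Cones held 2 Klf9 UMIs over the 3 control mice and 195 over the Phase I ROP mice, a ratio of CPM of 23.1 with a counting interval of 6.31 to 192, and both control UMIs came from control mouse 3. With classes assigned by marker score the Klf9 log2 fold change in cones was 2.48. By mouse, cones of Phase I ROP were at 186, 357 and 283 CPM. Among the Phase I ROP mice, the rods were above the amacrine cells in every mouse, while amacrine cells, cones, bipolar cells and Müller glia overlapped from each to the next in order of level.

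The 11 rod markers came along with Klf9 in other classes. In the cone class they summed to 16960 to 23950 CPM in Phase I ROP against 39410 to 55540 CPM in rods, and some of them, such as Pdc, are also expressed by cones. Klf9 per 100 rod marker UMIs was 0.765 to 0.894 in the rods of Phase I ROP mice and 1.09 to 1.49 in their cones, but 6.09 to 10.9 in bipolar cells and 19.3 to 29.4 in amacrine cells. The ratio in Müller glia was 4.77 to 8.71 in Phase I ROP and 4.80 to 9.09 in control. The rod markers in Müller glia summed to 270 to 646 CPM in control and 1045 to 2959 CPM in Phase I ROP. Their part in the Klf9 level of cones and Müller glia was not tested.

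In STZ-treated mice, Klf6 and Klf4 had their highest levels among the 5 large classes in Müller glia, the radial glia of the retina. Klf6 in Müller glia was at 15.5, 0 and 5.17 CPM in control, at 662, 407 and 510 CPM in Phase I ROP, at 401 and 478 CPM under ω-3 and at 269, 330 and 270 CPM under ω-6. Control held 6 UMIs in all, and the log2 fold change was 5.96 ± 0.44, or 6.89 without control mouse 1. Klf4 in Müller glia was at 0, 30.6 and 31.0 CPM in control, at 411, 402 and 279 CPM in Phase I ROP, at 384 and 642 CPM under ω-3 and at 459, 746 and 281 CPM under ω-6. Its log2 fold change was 3.99 ± 0.47, with 3.39 without control mouse 1 and 4.71 without control mouse 3. In Phase I ROP the Klf4 levels of Müller glia did not overlap with those of the 4 neuronal classes, which were at 32.8 CPM or less. Klf6 in Phase I ROP followed an order of Müller glia, amacrine cells, bipolar cells, rods and cones in which no class overlapped with the next. Per 100 UMIs of 11 Müller glia markers, Klf6 was at 1.47 to 2.66 in the Müller glia of Phase I ROP mice, and at 21.6 to 42.7 in their amacrine cells and 21.8 to 40.8 in their bipolar cells.

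Neurons of the inner retina held Klf6 too. In bipolar cells it was at 1.16, 2.34 and 3.96 CPM in control and at 77.0, 141 and 76.4 CPM in Phase I ROP (log2 fold change 4.75 ± 0.45). In amacrine cells it was at 17.8, 13.6 and 18.3 CPM in control and at 227, 193 and 148 CPM in Phase I ROP (3.17 ± 0.24). In rods it was at 6.15, 0 and 18.8 CPM in control and at 34.0, 38.8 and 46.3 CPM in Phase I ROP, and the fitted 1.57 ± 0.61 was not called. It was called at 3.03 without control mouse 3, at 1.77 with scaling to total UMIs, at 1.79 without the filter on low counts and at 1.76 with all 4 groups in 1 fit. No Klf6 UMI was found in control cones, and the floor of 3 UMIs there leaves no fold to give. In the 5 mice of the diets, Klf6 of amacrine cells was at 89.7 to 115.5 CPM and of bipolar cells at 31.8 to 56.6 CPM, below all 3 Phase I ROP mice in both classes. Klf4 in amacrine cells was at 1.98, 2.91 and 0 CPM in control, at 12.7, 13.8 and 32.8 CPM in Phase I ROP and at 27.2 to 55.3 CPM under the diets (Phase I ROP against control 3.12 ± 0.66). The amacrine cluster led by Cartpt, C1ql1 and Cbln2 held 173 of the Klf4 UMIs of the ω-6 mice (75.9 CPM), where the cluster led by Prdm13, Ebf3 and Nhlh2 held 8 (7.90 CPM).

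**Figure D3:**
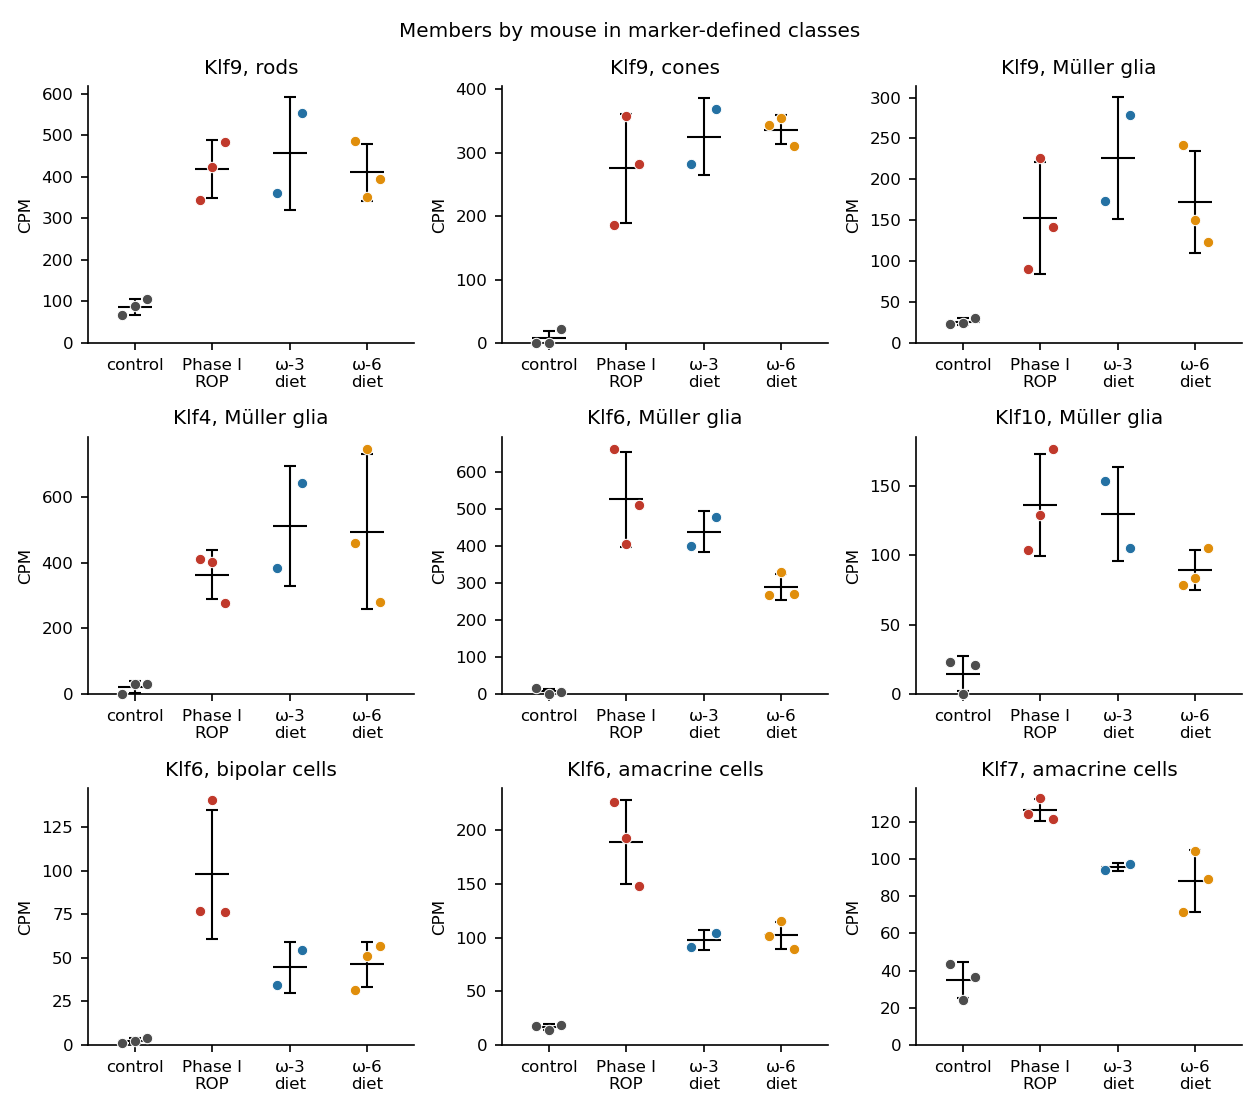
CPM by mouse (points) with mean and SD (bars) for 9 pairs of member and class, on linear axes from 0. All 9 pairs have all control mice below all STZ-treated mice, and Klf6 and Klf7 of amacrine cells are higher in Phase I ROP than in each mouse of the diets.

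Klf7 was highest in retinal ganglion cells, the output neurons of the retina, in control mice too, at 182, 220 and 241 CPM, against 496, 433 and 495 CPM in Phase I ROP, 356 and 246 CPM under ω-3 and 250.8, 305 and 439 CPM under ω-6. These values rest on 4 to 15 ganglion cells a mouse and were not tested. In amacrine cells Klf7 was at 43.6, 24.2 and 36.5 CPM in control and at 124, 133 and 121 CPM in Phase I ROP (log2 fold change 1.51 ± 0.21), with 71.3 to 104 CPM under the diets. In bipolar cells it was at 12.7, 17.6 and 19.8 CPM in control and at 86.7, 79.2 and 67.2 CPM in Phase I ROP (1.79 ± 0.29). Müller glia held 3 Klf7 UMIs in control, all in mouse 3, and 59 in Phase I ROP, a ratio of 20.7 (6.75 to 103). In rods and cones it was under the filter on low counts.

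Klf10 differed most in Müller glia, where it was at 23.3, 0 and 20.7 CPM in control and at 104, 129 and 177 CPM in Phase I ROP (log2 fold change 2.85 ± 0.48). In rods it was at 6.15, 0 and 11.3 CPM in control and at 36.5, 53.1 and 36.6 CPM in Phase I ROP (2.17 ± 0.66). That call was lost without control mouse 1 (1.97) and with classes assigned by marker score (1.87), and the value was 3.08 without control mouse 3. In bipolar cells Klf10 was at 26.9 to 29.7 CPM in control and 37.6 to 59.6 CPM in Phase I ROP, and in amacrine cells at 15.5 to 16.8 CPM and 23.8 to 30.8 CPM. Neither was called, with log2 fold changes of 0.30 ± 0.29 and 0.42 ± 0.31. Both had no overlap between groups on the scale of total UMIs, which placed the Phase I ROP mice higher.

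With TMM scaling, Klf13 and Klf3 were not called in any class in which they were tested. Klf13 was at 12.7 to 67.4 CPM in the 5 large classes of control mice and at 14.1 to 77.3 CPM in Phase I ROP, and neighbouring classes in order of level overlapped throughout in both groups. It was not called in rods (0.40 ± 0.49), bipolar cells (0.48 ± 0.28), amacrine cells (0.30 ± 0.23) or Müller glia (0.34 ± 0.39), and its direction in rods turned with classes assigned by marker score (-0.54). Klf3 passed the filter in Müller glia among the classes, where it was at 46.5, 12.3 and 36.2 CPM in control and at 43.9, 30.9 and 58.9 CPM in Phase I ROP (0.30 ± 0.47). In endothelial cells Klf3 was at 20.1 CPM in the pooled control mice (6.52 to 46.8 CPM, 5 UMIs) and at 122 CPM in the STZ-treated mice, where it was seen in 7 of 8 mice.

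Klf2 was close to absent from photoreceptors and bipolar cells, with at most 3.96 CPM in any mouse. Endothelial cells had the highest control level, at 113, 97.1 and 116 CPM, and were at 437, 389 and 239 CPM in Phase I ROP, 656 and 851 CPM under ω-3 and 73.3, 746 and 379 CPM under ω-6. Between 2 and 32 endothelial cells a mouse gave these levels, and the lowest came from a mouse with 2 cells. Klf4 of endothelial cells went beside it, at 36.1 CPM in pooled control (16.5 to 68.6 CPM) and 401 CPM in pooled STZ-treated mice (344 to 465 CPM). In microglia Klf2 had 0 UMIs in 12 control cells, with a 95% upper limit of 99.9 CPM, and 111 UMIs in 47 cells of STZ-treated mice. Müller glia held 0 Klf2 UMIs in control (95% upper limit 4.57 CPM) and 17 in Phase I ROP, which is 5.96-fold above a floor of 3 UMIs over the control group. Of the 17, 15 came from 1 mouse at 58.9 CPM, so this fold rests on that mouse. The other Phase I ROP mice were at 3.14 and 5.15 CPM. The call of Klf2 in all cells was lost without control mouse 1 (1.28), without Phase I ROP mouse 2 (1.28) and without Phase I ROP mouse 3 (1.43) and with all 4 groups in 1 fit (1.55), and its value was 2.15 without control mouse 3. Klf4 in all cells was at 3.80 without that mouse. The 10 endothelial markers summed to 322 to 526 CPM in all cells of control and 340 to 532 CPM in Phase I ROP, overlapping ranges. The 5 pericyte markers summed to 21.0 to 54.0 CPM in control and 70.3 to 81.9 CPM in Phase I ROP, without overlap, and their part in the Klf2 and Klf4 levels was not tested.

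By class, 2 of 4 members tested in rods were called, beside 34.0% of 6308 genes, and 1 of 1 in cones, beside 18.8% of 3125 genes. In bipolar cells the count was 3 of 5, beside 45.3% of 10019 genes, in amacrine cells 4 of 6, beside 38.8% of 11315 genes, and in Müller glia 5 of 7, beside 10.8% of 4855 genes. Every call was higher in Phase I ROP. Groups did not overlap for 4 tested members in rods (34.3% of genes higher), 5 in Müller glia (20.8%), 6 in amacrine cells (40.1%), 5 in bipolar cells (42.4%) and 1 in cones (28.6%). Members that passed the filter had to have UMIs in 1 of the groups, so they are no sample of all 8, and nothing is read from the counts.

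**Figure D4:**
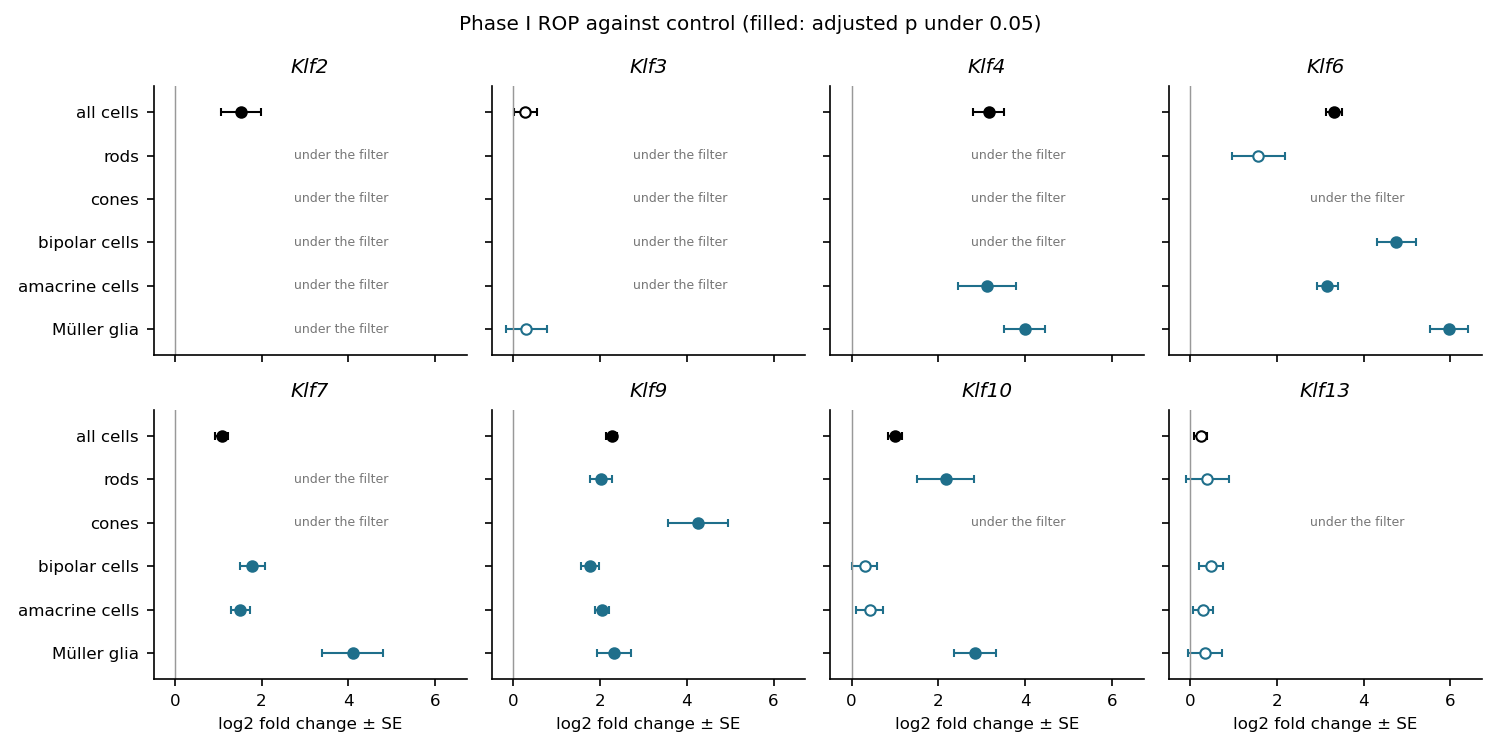
Log2 fold change of Phase I ROP over control (horizontal axis, points, bars are SE) for each member by class, with all cells in black. Filled points had an adjusted p under 0.05 and open points did not, and classes where a member was under the filter on low counts are written so. All points lie above 0, and those of Klf3 and Klf13 are the open ones in all cells; Klf9 in cones and Klf7 in Müller glia rest on 2 and 3 control UMIs.

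Immediate early genes, the transcripts that cells make first after a stimulus or after tissue handling, moved in the same direction as the members. All 22 listed were called higher in all cells of Phase I ROP, beside 24.7% of 15964 genes called higher. The median log2 fold change of the list was 3.05 against 0.0010 over all genes. Fosb was at 7.20 ± 0.26 and Nr4a1 at 5.61 ± 0.19. Their summed level in Müller glia was 723 to 1781 CPM in control, 6848 to 10620 CPM in Phase I ROP and 8922 to 11010 CPM under the diets. In rods it was 229 to 402 CPM, 2170 to 2652 CPM and 3206 to 5006 CPM, and in bipolar cells 202 to 261 CPM, 1018 to 1124 CPM and 1259 to 1867 CPM. In cones it was 216 to 884 CPM, 2800 to 4903 CPM and 4130 to 6232 CPM. In amacrine cells it was 300 to 458 CPM, 2773 to 4004 CPM and 3140 to 4701 CPM. In the STZ-treated groups Müller glia, where Klf4 and Klf6 were highest among the large classes, also had the highest immediate early level of these classes. Cones came next by median in each of these groups. By mean level in Phase I ROP, cones ranked 2 of the 5 large classes for Klf3 and Klf10 and 3 for Klf4 and Klf9. They were lowest for Klf6 (10.4 CPM), Klf7 and Klf13, and were at 0 CPM for Klf2, as rods were. The retinas were dissociated with papain, and the part of that step in the Klf levels was not tested.

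The diets were compared with each other as well. The members were listed with earlier results of these data known, so this comparison is not independent of the choice either. Between ω-6 and ω-3 mice, 0 of 8 members were called in all cells by edgeR or by DESeq2, beside 0.0% of 18821 genes, and no member had an unadjusted p under 0.05 there. The log2 fold changes of ω-6 over ω-3 were 0.55 ± 0.59 for Klf2, -0.05 ± 0.21 for Klf3, -0.13 ± 0.25 for Klf4, -0.16 ± 0.17 for Klf6 and -0.07 ± 0.16 for Klf7. For Klf9 it was 0.02 ± 0.21, for Klf10 -0.25 ± 0.21 and for Klf13 -0.28 ± 0.16. The groups overlapped for all but Klf13, which was at 56.5 and 59.4 CPM under ω-3 and at 37.7 to 50.6 CPM under ω-6 (adjusted p = 0.69, edgeR), and 19.5% of genes had ω-6 mice below without overlap. The value of Klf2 was set by ω-6 mouse 2, at 40.1 CPM: without it the log2 fold change was -0.56. That mouse gave 196934 endothelial UMIs from 21 cells, the most UMIs of that class in the 11 mice, and the part of these cells was not tested.

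Within classes too, 0 members were called between the diets by either tool, of 8 tested in Müller glia, 8 in amacrine cells, 6 in rods and 5 each in cones and bipolar cells. Over all genes 2 of 11033 (0.0181%) were called in rods and 0.0% in the other 4 classes, while an unadjusted p under 0.05 was held by 3.56% of genes in Müller glia, 4.21% in bipolar cells, 8.03% in cones, 9.89% in amacrine cells and 10.3% in rods. Of the members, 3 had an unadjusted p under 0.05 in a class. Klf7 in rods was at 40.8 and 34.2 CPM under ω-3 and 23.4, 19.7 and 24.4 CPM under ω-6 (log2 fold change -0.62 ± 0.28, adjusted p = 0.47, edgeR). Klf4 in amacrine cells was at 42 and 27.2 CPM under ω-3 and 51.1, 44.3 and 55.3 CPM under ω-6 (0.62 ± 0.26, adjusted p = 0.49, edgeR). The third was Klf6 in Müller glia (-0.54 ± 0.22, adjusted p = 0.99, edgeR). In Müller glia 4 of the 8 members, Klf3, Klf6, Klf10 and Klf13, were lower in all 3 ω-6 mice than in both ω-3 mice, which 12.5% of genes showed, and 6 of 8 log2 fold changes were negative. Klf3 was at 43.4 ± 2.36 CPM (SD, n = 3) under ω-6 and 60.6 ± 6.31 CPM (n = 2) under ω-3. Klf13 was at 56.2 ± 15.3 CPM and 91.7 ± 22.7 CPM. Klf10 was at 89.3 ± 14.3 CPM and 129.9 ± 34.2 CPM, and its highest ω-6 mouse (105.5 CPM) lay next to its lowest ω-3 mouse (105.7 CPM). The other 4 members of Müller glia overlapped between the diets. Of the 8 members, 2 in rods and 2 in cones were lower without overlap, beside 20.4% and 15.1% of tested genes. In bipolar and amacrine cells 1 and 2 were lower, beside 12.4% and 18.9%. Klf4 was higher without overlap in cones and amacrine cells, as were 9.92% and 9.86% of genes. Klf4 in rods and cones and Klf6 in cones were under the filter, and nothing is read from these counts. With 2 mice under ω-3, SEs of 0.15 to 0.62 left room for differences larger than the SEs themselves, in either direction.

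**Figure D5:**
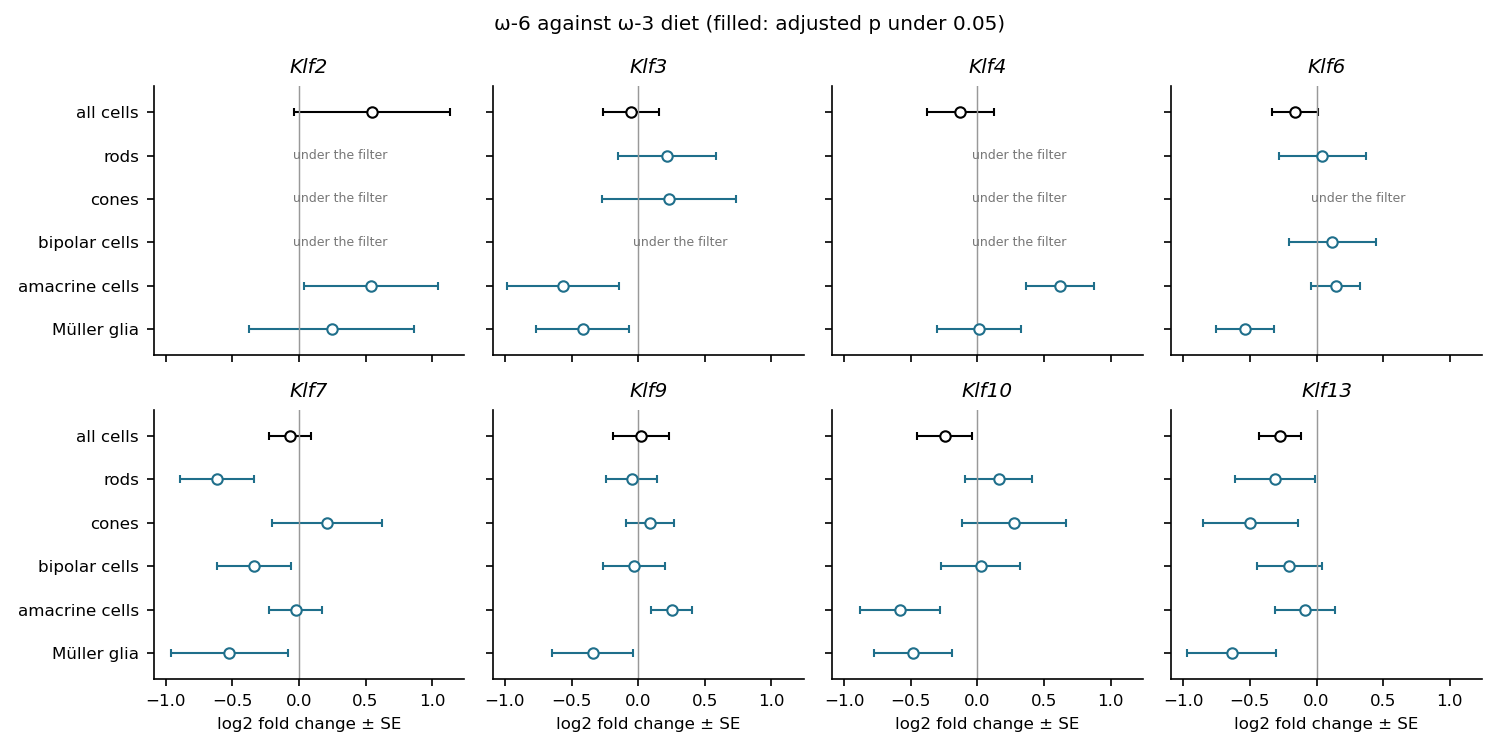
Log2 fold change of ω-6 over ω-3 (horizontal axis, points, bars are SE) for each member by class, drawn as for Phase I ROP. All points are open, since no adjusted p was under 0.05, and they lie between -0.64 and 0.62.

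The other genes of the family came from a list of 18 Klf and Sp genes, of which 16 had a row. In all cells of Phase I ROP against control, 6 of 8 tested were called higher, beside 24.7% of all genes, and 1 lower, beside 23.4%, with a median log2 fold change of 1.07 against 0.0010 over all genes. Klf11, a TGF-beta-induced repressor close to Klf10, was at 3.49 ± 0.35 CPM (SD, n = 3) in control and 12.2 ± 0.85 CPM in Phase I ROP (log2 fold change 1.54 ± 0.31 SE, adjusted p = 0.0017, edgeR). Sp1, a broadly expressed activator that binds GC boxes, rose from 12.6 ± 1.17 CPM to 37.3 ± 4.43 CPM (1.30 ± 0.20, adjusted p = 0.00032, edgeR), and it rose in bipolar cells (1.49 ± 0.40) and amacrine cells (1.49 ± 0.38). Klf16 rose in amacrine cells, from 1.70 ± 2.04 CPM to 12.9 ± 1.85 CPM (2.48 ± 0.65, adjusted p = 0.0075, edgeR). Sp8, a factor of neuronal development, was the gene that fell, from 6.89 ± 0.46 CPM to 3.72 ± 0.26 CPM (-1.14 ± 0.33, adjusted p = 0.013, edgeR). In amacrine cells 3 of 5 and in bipolar cells 2 of 4 tested genes of the list rose, beside 18.3% and 21.3% of all genes, and none fell. Of the list, 0 of 4 in rods were called by edgeR or DESeq2, with 2 at an unadjusted p under 0.05, and in cones 0 of 1 and in Müller glia 0 of 2 were called by either tool, with 0 at an unadjusted p under 0.05. Leaving out control mouse 1, Phase I ROP mouse 2 or Phase I ROP mouse 3 left 4 of the 7 calls in all cells in number.

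Lists around the known inputs of the members were read beside 24.7% of all genes called higher and 23.4% called lower in all cells. Of 9 genes with a row listed as ERK5 and MEF2 inputs of Klf2 and Klf4, 4 of 8 tested in all cells rose and none fell (median 0.73). Srf, which was listed with them but binds the CArG box, rose by 3.70 ± 0.53 on the log2 scale, and Mef2d rose by 1.44 ± 0.14. Mef2d also rose in rods (1.89 ± 0.32), bipolar cells (0.83 ± 0.19) and cones (1.06 ± 0.36), where it was the 1 gene of the list tested and DESeq2 did not call it (adjusted p = 0.063). In amacrine cells 1 of 5 tested rose, beside 18.3% of all genes, and DESeq2 called 0. No gene of the list was tested in Müller glia, the large class with the highest Klf4 in STZ-treated mice. Of 12 genes of steroid and thyroid hormone response, inputs of Klf9, 6 of 10 tested rose in all cells and none fell (median 1.38). Among them were Rxra, a partner of thyroid hormone receptors (2.54 ± 0.33), and Per1, a glucocorticoid-induced clock gene (2.20 ± 0.37). Others were the thyroid hormone receptor gene Thrb (2.16 ± 0.26) and Sgk1, a glucocorticoid-induced kinase (1.51 ± 0.36). Thrb is also a cone marker, and cones were 73 of 3205 control cells and 343 of 5748 Phase I ROP cells. The part of cone number in its level was not tested. In rods 3 of 5 tested rose, beside 18.4% of all genes, and in amacrine cells 4 of 8, beside 18.3%. In cones the 1 gene tested, Thrb, rose by 1.13, beside 10.9% of genes, and DESeq2 did not call it (adjusted p = 0.13). Neither tool called any of 4 tested in bipolar cells (median 0.22) or of 2 in Müller glia (median -0.015). The shares of all genes called higher there were 21.3% and 5.81%, and Klf9 itself was called in both classes. Of 14 TGF-beta signalling genes, inputs of Klf10, 6 of 12 rose in all cells and 1 fell (median 0.77), with Smad7, the inhibitory Smad, at 2.34 ± 0.37, Smad4, the shared Smad, at 1.47 ± 0.13, the corepressor Ski at 1.04 ± 0.16, and the ligand Tgfb1 at -1.24 ± 0.37. In bipolar cells and amacrine cells 6 of 7 and 6 of 9 tested rose, beside 21.3% and 18.3% of all genes. Klf10 itself was tested and not called in these 2 classes. Where Klf10 was called, 2 of 4 of the list rose in rods, beside 18.4% of genes, and 1 of 3 in Müller glia, beside 5.81%. In cones 1 of 2 rose, beside 10.9%.

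For lists on partners and outputs of the family, the counts in all cells stand beside the same shares of all genes (24.7% higher and 23.4% lower), and nothing is read from them. Of 10 corepressors and ubiquitin ligases, 3 rose and 3 fell in all cells (median 0.042): Ctbp2, a partner of Klf3, rose (1.57 ± 0.15), as did the scaffold Sin3a (0.87 ± 0.19), and the deacetylases Hdac1 (-0.94 ± 0.15) and Hdac2 (-0.64 ± 0.11) fell. Of 11 growth arrest genes, 3 of 10 tested rose and 1 fell in all cells (median 0.24), with Gadd45b at 3.11 ± 0.28, Gadd45a at 1.43 ± 0.22, the cyclin Ccnd3 at -1.19 ± 0.23 and the inhibitor Cdkn1b at 0.52 ± 0.13. In Müller glia Gadd45b (4.82 ± 0.63) and Gadd45a (2.71 ± 0.46) rose and the inhibitor Cdkn1c fell (-1.03 ± 0.25). Of 10 axon growth genes with a row, 4 rose and 3 fell in all cells (median 0.13). The neuronal tubulin gene Tubb3 (-1.22 ± 0.12) and the growth cone gene Gap43 (-1.03 ± 0.18) fell, and the injury-induced factors Stat3 (1.11 ± 0.20) and Atf3 (5.55 ± 0.50) rose. Atf3 is an immediate early gene as well. Of 10 endothelial targets of Klf2 and Klf4, 0 of 6 tested were called in all cells by edgeR and 1 by DESeq2, with 2 at an unadjusted p under 0.05 (median -0.099). The receptor gene Kdr rose in amacrine cells (1.43 ± 0.22) and Müller glia (0.77 ± 0.18). In Müller glia 10 endothelial markers summed to 1412 to 1612 CPM in control and 2159 to 3061 CPM in Phase I ROP. Kdr is 1 of these 10 markers, so the sum is not independent of it. Between the diets edgeR called 0 genes of these lists in any class, while DESeq2 called 1 immediate early gene in all cells and 2 in rods, and in all cells 7 of 22 immediate early genes had an unadjusted p under 0.05, beside 7.06% of all genes.

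The genes whose levels were most like those of a member over 55 sums (5 classes of 11 mice), among 11555 genes, differed between members. These points share mice, libraries and depth, and the correlations are a description. For Klf4 they were Arc (r = 0.911), Adamts1 (0.89) and Nr4a3 (0.882), for Klf6 Nr4a3 (0.86), Jdp2 (0.857) and Srxn1 (0.851), and for Klf2 Fosl2 (0.858), Nr4a3 (0.84) and Jdp2 (0.798). Nr4a3, an orphan nuclear receptor of the immediate early list, was shared by these 3 members. Klf9 was most like Med13l (0.906), Rragc (0.901) and Cdk19 (0.894), of which Med13l and Cdk19 code for parts of the Mediator kinase module. Klf7 was most like Bcl7a (0.865), Phf21a (0.849) and Ikzf4 (0.83), and Klf10 like Frat2 (0.836), Elf1 (0.807) and Srf (0.78). Klf3 and Klf13 had lower values, with Vamp8 (0.767) and Pea15a (0.778) in first place.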

How the data were processed

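Retinas of 11 mice were dissociated with papain and profiled by inDrop single-cell RNA sequencing. Per the study's methods, the authors demultiplexed barcodes, dropped those under 500 reads, mapped reads with Rapmap to GRCm38 transcripts and deposited whole-number UMI counts per gene and cell, which were used as deposited. Of 20067 cells, 20033 with more than 300 genes were clustered in Seurat 5.3.0 (2000 variable genes, 75 principal components, resolution 0.2), giving 25 clusters named from canonical markers. Scrublet marked 72 cells (0.359%), too few to have worked, so doublets were not removed, and an alternative left out the 5% of cells with the highest scores.

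UMI counts were summed per mouse and class and tested in edgeR 4.0.16 (quasi-likelihood test, TMM scaling, filterByExpr, Benjamini-Hochberg adjustment over all genes, threshold 0.05), with the 2 groups compared in each fit, for all cells and for classes with at least 10 cells in every mouse. DESeq2 1.42.0 and the other alternatives are described in the closing section. The tests were checked on simulated counts. P-values measure the spread between mice of 1 litter or litter set. Intervals are exact Poisson (95%), and floors are 3 UMIs. Intervals and floors cover counting error only.

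The 8 members and all gene lists were chosen with earlier results of these data known. Values were named for all members, for the 3 other Klf and Sp genes with the largest called increase and the 3 with the largest called decrease, for at most 4 called genes of each further list, and for the 3 genes most like each member by Pearson correlation of log2 CPM (prior count 2, mean of at least 10 CPM). Promoters came from RefSeq (GRCm38.p6) and gene positions from the GENCODE annotation of GRCm38. Statements on cluster-leading genes and on Nr4a3 as a shared gene were added after the values were seen.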

Additional observations from a re-analysis of the deposited data

How the results depend on the processing

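Alternatives were DESeq2, median-of-ratios scaling, all genes without the filter, all 4 groups in 1 fit, a replicate block, each mouse left out, cells with more than 500 genes, no top doublet scores, classes by marker score, clustering without Klf, Sp and immediate early genes, thinned sums and, chosen after seeing the data, scaling to total UMIs. The number of members called in Phase I ROP against control in rods was 1 with classes by marker score, with more than 500 genes and with thinned sums, 1 to 3 with a mouse left out, and 3 with scaling to total UMIs, without the filter and with all 4 groups. In cones it was 0 with thinned sums, where no member passed the filter. The number of other Klf and Sp genes called in all cells was 4 to 7 with a mouse left out. In rods it was 2 with scaling to total UMIs, with all 4 groups and with marker score, 1 without the filter and 0 to 1 with a mouse left out. In bipolar cells it was 1 with DESeq2, marker score and thinned sums and 1 to 3 with a mouse left out, and in amacrine cells 1 with clustering without these genes. The cause of these shifts was not tested.

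The correlations of same-numbered mice in all cells were -0.0184, 0.101 and 0.141 for Phase I ROP and control, not all above 0.1, and 0.075 and 0.26 for the 2 pairs of the diets (0.178 to 0.272 by class for mice 2), too few to tell, so numbers were not taken to pair the mice. With a replicate block the members called numbered 6 in all cells, 2 in rods, 1 in cones, 5 in Müller glia, 4 in amacrine and 3 in bipolar cells, as without it. The ω-6 over ω-3 log2 fold change of Klf3 in all cells turned to 0.088 with the replicate block, and that of Klf9 to -0.0517 with scaling to total UMIs. Leaving out a mouse gave ranges of -0.56 to 0.90 for Klf2, -0.17 to 0.089 for Klf3, -0.47 to 0.030 for Klf4, -0.19 to 0.071 for Klf7, -0.29 to 0.42 for Klf9 and -0.52 to 0.093 for Klf10, and none was called. Depth limits the control cones (37038 to 92730 UMIs a mouse) and the classes under 10 cells.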
